A study of Homo sapiens with 9 samples.

Results

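HEK293 cells, a human embryonic kidney line, were transfected with a plasmid for the ADARB1 isoform that includes an Alu-derived exon (Long) or with the empty vector (EV), and poly(A) RNA was sequenced 48 hours later. These 6 samples, 3 Long and 3 EV, were chosen by their labels out of 9 in the series. The remaining 3 samples received the isoform that skips the exon (Short). They entered the filter and the fit, where they share the estimate of the spread, and are set beside Long and EV further below. All groups were transiently transfected with Lipofectamine in the same parental line, and the methods state that the transfections were repeated in different cell passages. The same replicate number was taken here as the same passage, which neither the labels nor the methods state. Replicate 1 of EV and replicate 1 of Long thus form pair 1. The pCMV6 plasmid drove the enzyme from a strong viral promoter, so the Long samples model excess enzyme in a mixed population of transfected and untransfected cells, and no protein level was analysed here. The methods derive the Long plasmid from the Short plasmid by inserting the exon.

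ADARB1, also called ADAR2, converts adenosine to inosine in double-stranded RNA, and the inosine is read as guanosine by the ribosome. It is best known for recoding glutamate receptor mRNAs in neurons, whereas ADAR, also called ADAR1, is the broadly expressed enzyme and marks cellular double-stranded RNA as self. Alu elements are primate-specific repeats, and inverted copies in a transcript form many of the double-stranded substrates of these enzymes.

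FPKM, which scale a gene's fragments for transcript length and for library size, were given for 54562 Ensembl genes, and 13801 had a mean of at least 1 FPKM over the 9 libraries and were tested. The number of fragments per library is unknown. The steps left by single fragments in the lowest values put the depth of the other EV libraries at 1.02 and 1.16 times that of EV replicate 1, and the depth of the Long libraries at 0.997, 1.00 and 1.11 times. These estimates are rough. Of the genes used, 41.9% to 46.1% in those EV libraries and 25.6% to 28.2% in Long lay within 0.02 on the log2 scale. The libraries of replicate 3, whichever plasmid they received, stood apart from the others. Their deviations from the group means correlated at -0.37 to -0.63 across genes with those of replicates 1 and 2 of the other groups, so results with and without replicate 3 are given below. The 12 HEK293 markers found in the table, among them VIM and KRT18, were all at 1 FPKM or more in every EV and Long library and summed to 521 to 550 FPKM in EV and 580 to 596 in Long. Of 14 markers of other cell types found, CD68, COL1A1 and EPCAM alone passed the filter and none was called. The list summed to 25.9 to 32.1 FPKM in EV and 29.2 to 35.0 in Long, EPCAM was its most abundant gene in all of these libraries, and HBB was listed at 0 in each.

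ADARB1 was listed at 7.66, 7.999 and 8.61 FPKM in EV and at 1695, 3449 and 2080 FPKM in Long. The groups did not overlap, and the mean was 298 times higher in Long. The difference on the log2(FPKM + 1) scale was 7.99 (SE 0.16, limma with Benjamini-Hochberg adjustment, adjusted p = 2.23e-09). A two-sided exact permutation test of the 3 against 3 libraries gave p = 0.1, the smallest p that this design allows. ADAR was at 63.2, 60.5 and 59.3 FPKM in EV and 66.2, 68.1 and 60.1 in Long (adjusted p = 0.346 in limma), and ADARB2, a brain paralog without known editing activity, was near 1 FPKM in both groups (adjusted p = 0.588 in limma). The gene of ADARB1 lies at chr21:46493768-46646475 (GRCh37).

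Among the genes called after adjustment, more were lower in Long than higher. Of the 13801 genes, 873 (6.33%) were called lower and 275 (1.99%) higher at an adjusted p under 0.05, 8.32% in all, and 76.0% of the called genes were therefore lower. Other counts leaned the opposite way, with 1652 genes lower and 1715 higher at an unadjusted p under 0.05 in limma, 2495 lower and 3787 higher in all 3 pairs, and a median of 0.04 over all genes. The genes called lower fell by a median of 0.49 on the log2 scale, and 41 of them had a difference of more than 1. The genes called higher rose by a median of 0.23, and 4 of them, ADARB1 included, passed 1. Among genes with a symbol the largest falls were in CENPE, ATRX, CENPF, GOLGB1 and EEA1, which act in chromosome segregation, chromatin and vesicle tethering. Mitochondrially encoded mRNAs and large-subunit ribosomal proteins were among the groups with the highest shares of higher genes.

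The lists below cover 1163 of the tested genes in 38 functions, and hold 136 of the lower and 61 of the higher calls. The split of the calls depended on the scaling. With TPM, for which every library's FPKM are scaled to an equal total, 1217 genes were lower and 57 higher, so that 95.5% were lower. When libraries were scaled by the median ratio, 1131 were lower and 112 higher, so that 91.0% were lower. The calls also depended on the pairing and on replicate 1. Without the passage in the model, ADARB1 and a pseudogene were the only calls, and without replicate 1 there was 1 lower and 1 higher gene, against 1373 and 1971 genes at an unadjusted p under 0.05 in that limma fit. Without replicate 2 there were 88 lower and 12 higher genes, and without replicate 3 there were 944 and 87.

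The coding sequences of the lower and higher genes differed visibly in base composition. The middle 90 bases of the longest coding exon are shown for the 2 protein-coding genes with the largest falls and for HNRNPM, the SR protein or hnRNP gene with the largest rise, chosen after their values were seen, with G and C in capitals. They are read from GENCODE transcripts on GRCh37, CENPE at chr4:104080280-104080369, minus strand, ATRX at chrX:76938504-76938593, minus strand, and HNRNPM at chr19:8550843-8550932, plus strand.
CENPE: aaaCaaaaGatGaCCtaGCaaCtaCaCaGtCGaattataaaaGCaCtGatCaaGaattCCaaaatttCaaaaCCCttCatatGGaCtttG
ATRX: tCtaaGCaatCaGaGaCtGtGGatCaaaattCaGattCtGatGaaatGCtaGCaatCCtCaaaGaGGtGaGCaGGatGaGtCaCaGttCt
HNRNPM: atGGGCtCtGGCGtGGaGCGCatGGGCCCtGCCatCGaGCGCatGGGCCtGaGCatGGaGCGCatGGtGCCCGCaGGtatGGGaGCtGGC
G and C made up 33.3% of the stretch of CENPE, 41.1% of that of ATRX and 68.9% of that of HNRNPM. Over the whole coding sequence the values were 35.3%, 38.2% and 55.5%.

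**Figure D1:**
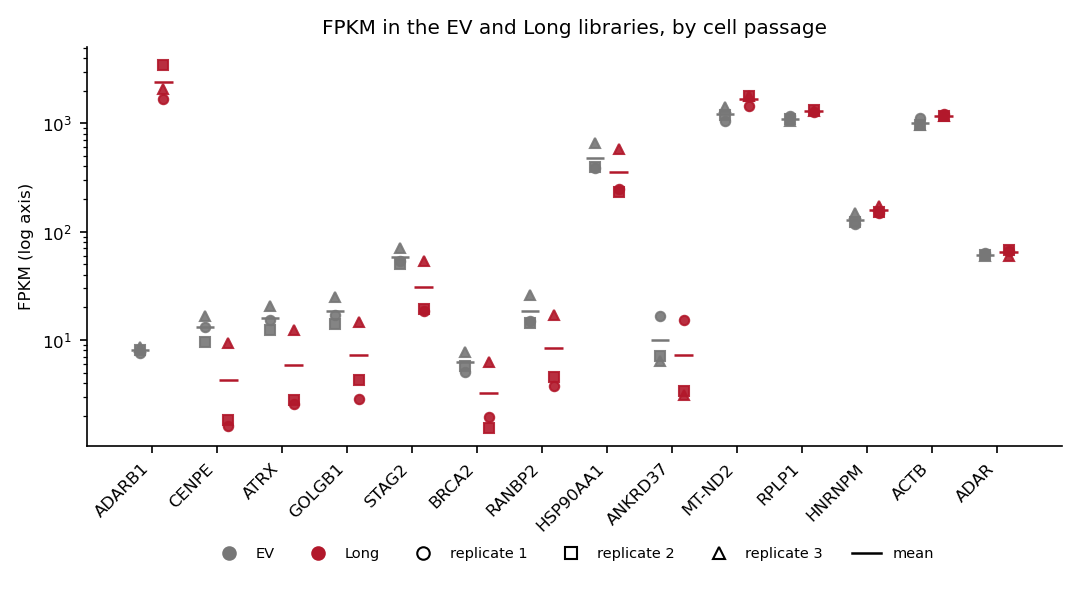
FPKM (log axis) of 14 genes in the 3 EV libraries (grey) and the 3 Long libraries (red), with a symbol for each replicate (cell passage) and a line at each mean. ADARB1 is 298 times higher in Long, genes such as CENPE and ATRX are low in Long replicates 1 and 2 and nearer to EV in replicate 3, and MT-ND2 and ACTB are slightly higher in Long.

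Several genes of chromosome segregation were called lower, most of them only without a correction for GC content. CENPE, the kinesin that links kinetochores to spindle microtubules, was at 13.2, 9.68 and 16.8 FPKM in EV and at 1.60, 1.82 and 9.40 in Long. The Long libraries of replicates 1 and 2 were the lowest and no Long value reached an EV value, although Long replicate 3 came close to EV replicate 2. Long held 12.1%, 18.8% and 56.1% of the EV level in the 3 pairs, and the log2 difference was -1.71 (SE 0.29, adjusted p = 0.0102 in limma, and 0.0518 after the GC correction). CENPF, a large kinetochore protein, was at 38.7, 29.0 and 57.5 FPKM in EV and 7.87, 7.91 and 33.8 in Long. Here Long replicate 3 lay above the lowest EV value while the other Long libraries were far below it (log2 difference -1.55, SE 0.24). Of 33 kinetochore and centromere genes tested, 10 were lower (30.3%, against 6.33% of all genes) and none higher, with KNL1, the scaffold that recruits checkpoint proteins, NDC80 and NUF2 among the lower genes. With the GC correction 1 was lower. The median difference of the list was 0.02, beside 0.04 for all genes, so the typical member did not share the fall. CENPA, the centromeric histone, was at 24.8, 22.1 and 20.8 FPKM in EV and at 22.05, 20.9 and 20.7 in Long.

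Among 27 spindle checkpoint and mitotic kinase genes, 7 were lower (25.9%, against 6.33% of all genes) and none higher, with a list median of 0.04, and 2 were lower after the GC correction. ASPM, which organises spindle poles, was at 15.4, 13.2 and 23.4 FPKM in EV and 3.30, 3.404 and 13.6 in Long, a log2 difference of -1.46 (SE 0.22, adjusted p = 0.00889 in limma). SGO2, which protects cohesin at centromeres, fell by 0.97 on the log2 scale. CDK1, the kinase that drives entry into mitosis, showed a smaller fall, from 85.0, 82.1 and 96.3 FPKM to 61.7, 55.9 and 79.7 (log2 difference -0.43, SE 0.06). PLK1 and AURKB, other mitotic kinases, were not called, with PLK1 at 89.6, 76.0 and 77.2 FPKM in EV and 96.1, 92.3 and 88.7 in Long, and AURKB at 108, 98.6 and 93.8 in EV and 110, 113 and 106 in Long. Lower and uncalled members thus stood side by side in the same process.

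Motor and centrosome genes also held lower calls. Of 33 kinesins 8 were lower (24.2%, against 6.33% of all genes) and none higher. KIF20B, a cytokinesis motor, was at 9.76, 7.83 and 13.4 FPKM in EV and 2.08, 2.71 and 9.46 in Long. KIF5B, the ubiquitous transport kinesin, was at 38.8, 38.7 and 56.6 in EV and 17.0, 17.0 and 48.6 in Long (adjusted p = 0.0118 in limma). In both genes Long replicate 3 lay within the EV range and the other Long libraries below it. Of 43 centrosome and centriole genes 18 were lower (41.9%, against the same 6.33%). In all 3 pairs 25 of them were lower and 4 higher, beside 2495 (18.1%) and 3787 (27.4%) of all tested genes. After a correction for GC content none of the kinesins or of the centrosome genes was called lower. The corrected differences were -1.02 for AKAP9 (adjusted p = 0.0511 in limma), -0.66 for KIF5B (0.0539) and -0.77 for CEP290 (0.0507). The median of this list, -0.24, was the lowest of the 38, with -0.19, -0.43 and -0.10 in the 3 pairs. AKAP9, a centrosomal scaffold for protein kinase A, was at 12.1, 8.82 and 14.8 FPKM in EV and 2.85, 2.93 and 9.69 in Long, and CEP290, a protein of the ciliary transition zone, was at 8.56, 6.31 and 10.2 in EV and 2.52, 1.99 and 5.98 in Long.

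Cohesin and condensin, the ring complexes that hold and fold chromosomes, had the largest share of lower members before any correction for GC content. Of 29 genes 13 were lower (44.8%, against 6.33% of all genes) and none higher, and 1 was lower after the correction described below, with a median of -0.13 and medians of -0.11, -0.26 and -0.04 in the 3 pairs. NIPBL, the cohesin loader, was at 27.0, 21.1 and 37.7 FPKM in EV and 6.12, 8.54 and 26.6 in Long, and STAG2, a cohesin subunit, was at 54.0, 50.5 and 70.7 in EV and 18.5, 19.3 and 54.0 in Long. Each fell by over 1 on the log2 scale (-1.22, SE 0.20 and -1.08, SE 0.18). After the GC correction the differences of NIPBL and STAG2 were -1.07 and -0.78 and did not pass (adjusted p = 0.0501 and 0.0514 in limma). SMC3 fell by 0.92, whereas SMC1A, its partner in the same ring, was at 272, 246 and 236 FPKM in EV and 289, 271 and 256 in Long and was not called. The lower members had a median transcript GC content of 37.6% and the other members 46.7%.

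Chromatin remodellers and DNA repair factors followed. Of 37 SNF2-family remodellers and partners 13 were lower (35.1%, against 6.33% of all genes) and 1, CHD8, was higher, and 2 were lower after the GC correction. ATRX, which deposits histone H3.3 in heterochromatin, was at 15.2, 12.3 and 20.5 FPKM in EV and 2.55, 2.81 and 12.3 in Long, so Long replicates 1 and 2 stood far below all EV libraries (log2 difference -1.56, SE 0.26, adjusted p = 0.00965 in limma). CHD8 was at 28.2, 27.4 and 29.3 FPKM in EV and 35.1, 35.9 and 33.3 in Long. Of 42 genes of double-strand break repair and the Fanconi anaemia pathway 15 were lower (35.7%) and none higher, with a median of -0.10, and 2 were lower after the GC correction. RIF1, which directs breaks to end joining, was at 16.4, 13.2 and 25.3 FPKM in EV and 3.65, 4.18 and 15.8 in Long, and BRCA2, which acts in homologous recombination, was at 5.09, 5.79 and 7.73 in EV and 1.95, 1.53 and 6.21 in Long. The log2 difference of BRCA2 was -0.92 (adjusted p = 0.0238 in limma), and -0.63 with the GC correction (adjusted p = 0.113 in limma).

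Histone methyltransferases and demethylases showed 1 lower gene of 42 (2.38%), JMJD1C, below the share of all genes. Of 47 genes of the DNA replication machinery 3 were lower, ORC3, ORC4 and TOPBP1, and 3 higher, MCM2, MCM7 and RFC2. The lower share, 6.38%, was near that of all genes, 6.33%, and no member was called after the GC correction. ORC3, a subunit of the origin recognition complex, fell by 0.58 on the log2 scale. MCM2, a subunit of the replicative helicase, was at 82.7, 75.1 and 73.9 FPKM in EV and 89.6, 92.4 and 87.6 in Long. Of 29 nuclear pore genes RANBP2, TPR and NUP35 were lower (10.3%) and NUP188 and RAE1 higher (6.90%, against 1.99% of all genes). With the GC correction RANBP2 alone was lower and none higher. TPR went from -1.08 to -0.94 and did not pass (adjusted p = 0.0533 in limma). RANBP2, the large filament protein on the cytoplasmic side, was at 14.9, 14.4 and 25.9 FPKM in EV and 3.74, 4.51 and 17.2 in Long (log2 difference -1.26, SE 0.18).

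Membrane traffic contributed some of the largest falls. Of 37 golgins, tethers and VPS13 lipid-transfer proteins 10 were lower (27.0%, against 6.33% of all genes) and none higher, with a list median of 0.03. GOLGB1, or giantin, which tethers vesicles to the Golgi, was at 17.1, 14.04 and 24.9 FPKM in EV and 2.86, 4.26 and 14.6 in Long (log2 difference -1.49, SE 0.21, adjusted p = 0.00884 in limma). EEA1, the tether of early endosomes, was at 9.17, 5.93 and 12.3 in EV and 1.00, 1.66 and 7.15 in Long. In both genes Long replicates 1 and 2 were below every EV library and Long replicate 3 was not. VPS13A fell by 1.24 and GOLGA4 by 1.46 on the log2 scale. After a correction for GC content 6 members of this list were called lower. Other lower genes outside the lists were PHIP, DYNC2H1, a motor of ciliary transport, and ZNF292, which was at 9.31, 8.34 and 11.6 FPKM in EV and 2.70, 2.00 and 6.17 in Long with no overlap.

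Zinc finger genes were the most numerous lower family. Among symbol roots with at least 20 tested genes, ZNF had 45 lower and 1 higher of 431 (10.4% lower), CEP 13 of 37, USP 9 of 48 and ARHGAP 6 of 28 lower, where 6.33% of all genes were lower. After the GC correction 6 ZNF genes, 1 USP gene and no CEP or ARHGAP gene were called lower.

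**Figure D2:**
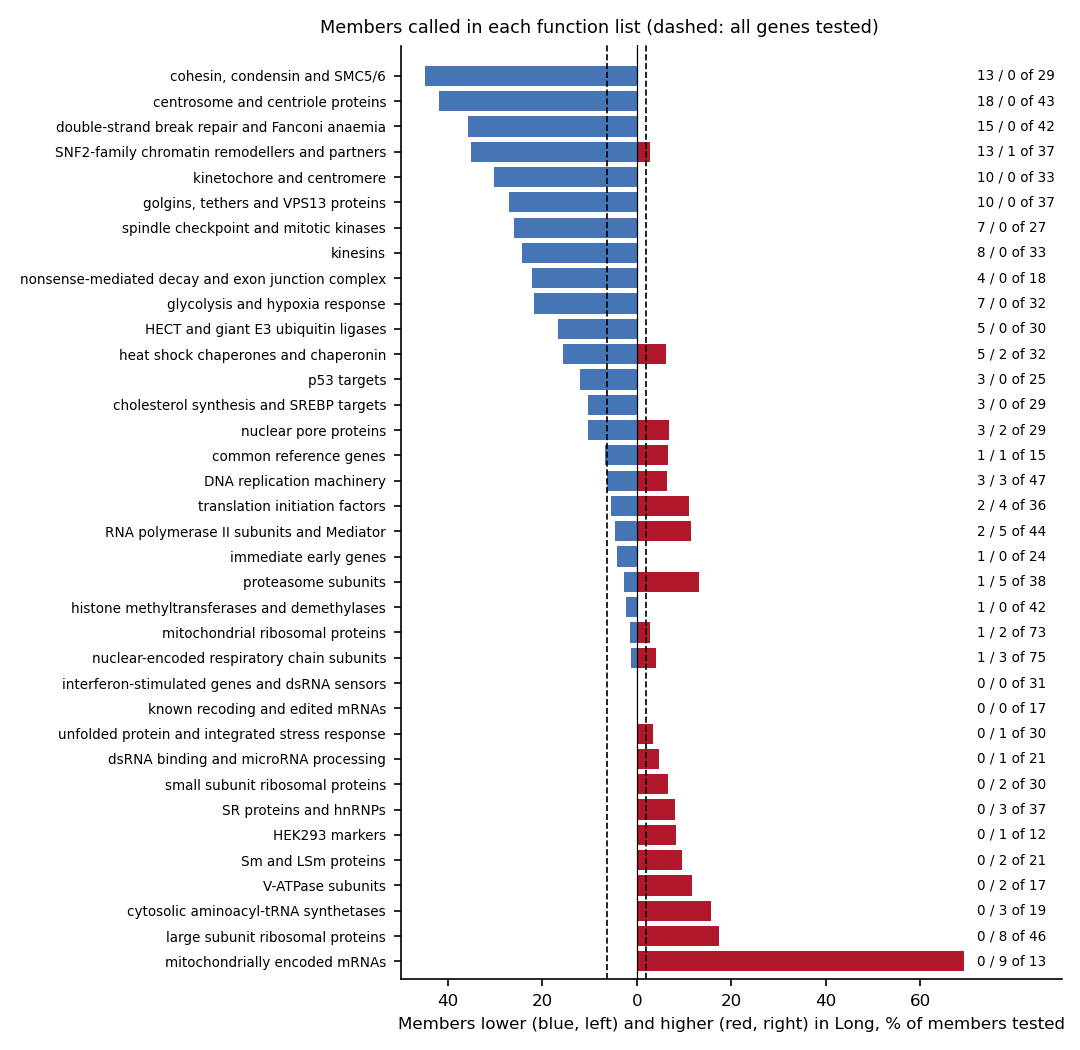
Share of the tested members of 36 function lists called lower (blue, to the left) or higher (red, to the right) in Long against EV, in percent, with the numbers lower, higher and tested at the right. Dashed lines mark 6.33% lower and 1.99% higher among all genes tested; cohesin and condensin reach 44.8% lower and mitochondrially encoded mRNAs 69.2% higher.

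Protein quality control held calls in both directions. HSP90AA1, the inducible cytosolic HSP90, was at 388, 392 and 657 FPKM in EV and 250, 231 and 580 in Long, and fell by 0.52 on the log2 scale (SE 0.10, adjusted p = 0.0125 in limma). HSP90AB1, its constitutive paralog, was at 500, 474 and 563 in EV and 580, 566 and 606 in Long, and rose by 0.19 (SE 0.04, adjusted p = 0.0274 in limma). Both proteins perform the same chaperone cycle, and their mRNAs differed in direction in all 3 pairs. Of 32 heat shock chaperone and chaperonin genes 5 were lower (15.6%, against 6.33% of all genes) and 2 higher (6.25%, against 1.99%). The other lower genes were HSPA13, HSPH1, HSP90B1 and DNAJC10, and the other higher gene was HSPA8. With the GC correction HSP90AA1 was the only member called lower and none was higher. Of 38 proteasome subunits 5 were higher (13.2%, against 1.99% of all genes) and 1 lower, and none was called after the GC correction. PSMC4, an ATPase of the base, was at 87.4, 83.9 and 97.1 FPKM in EV and 100.2, 102 and 110 in Long, and PSMC6, another ATPase of the same ring, was at 46.2, 45.5 and 57.7 in EV and 34.3, 34.3 and 56.3 in Long. HECT and giant ubiquitin ligases had 5 lower genes of 30 (16.7%, against 6.33% of all genes and none after the GC correction), with NEDD4 at -0.75 (SE 0.13).

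Most genes of protein synthesis were not called, and those called higher differed by small amounts. Of 46 large-subunit ribosomal protein genes 8 were higher (17.4%, against 1.99% of all genes), 30 were higher in all 3 pairs and none was lower in all 3. RPLP1, a protein of the ribosomal stalk, was at 1165, 1098 and 1052 FPKM in EV and 1272, 1341 and 1298 in Long, without overlap (log2 difference 0.24, SE 0.04, adjusted p = 0.0108 in limma). Of 30 small-subunit genes RPS3 and RPS21 were higher. The medians of the large-subunit and small-subunit lists were both 0.09 and were both 0.02 under TPM scaling, where the median of all genes was -0.03. After the GC correction 1 large-subunit gene and no small-subunit gene was higher. Both lists are of abundant mRNAs, and 10.3% of all genes in the most abundant of 10 equal bins were called higher. Ribosomal protein genes have many near-identical pseudogenes, so reads can be split between copies. Of 19 cytosolic tRNA synthetases, with a median EV level of 75.2 FPKM, 3 were higher (15.8%, against 1.99% of all genes). WARS1 led them, at 67.7, 63.0 and 62.5 FPKM in EV and 85.6, 79.8 and 72.5 in Long. With the GC correction 1 member was higher, but not WARS1, which went from 0.29 to 0.22 (adjusted p = 0.0652 in limma). Of 36 translation initiation factors, with a median EV level of 133 FPKM, EIF3B, EIF3C, EIF3I and EIF4G1 were higher (11.1%, against 1.99% of all genes). EIF5B and EIF3E were lower (5.56%, below the 6.33% of all genes). With the GC correction 1 member was higher and EIF5B alone lower. EIF3E went from -0.52 to -0.33 and did not pass (adjusted p = 0.0651 in limma). EIF3E was at 170, 164 and 193 FPKM in EV and 106, 103 and 166 in Long, while EIF3B, a partner in the same complex, was at 148, 139 and 155 in EV and 167, 175 and 172 in Long.

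Genes of transcription and RNA processing gave a similar picture. Of 44 RNA polymerase II and Mediator subunits 5 were higher (11.4%, against 1.99% of all genes and none after the GC correction), among them POLR2I and POLR2L, and MED13 and CCNC, both of the Mediator kinase module, were lower. With the GC correction MED13 went from -0.54 to -0.36 and was not called (adjusted p = 0.0996 in limma), and CCNC turned from -0.28 to 0.04. Of 37 SR proteins and hnRNPs 3 were higher (8.11%, against 1.99% of all genes) and none lower, and 5 were higher after the GC correction. HNRNPM, a splicing regulator, was at 117, 122 and 148 FPKM in EV and 148, 153 and 174 in Long (log2 difference 0.30, SE 0.04, adjusted p = 0.00889 in limma). Each Long library exceeded its own EV partner, although the highest EV value was just above the lowest Long value. The difference of HNRNPM was 0.22 after the GC correction and did not pass (adjusted p = 0.0509 in limma). Of 18 genes of nonsense-mediated decay and the exon junction complex 4 were lower (22.2%, against 6.33% of all genes and none after the GC correction), UPF2, UPF3B, DCP2 and XRN1, the cytoplasmic exonuclease, which fell by 0.57 on the log2 scale. Of 30 genes of the unfolded protein and integrated stress response CALR alone was higher (3.33%, against 1.99% of all genes). So were 2 of 21 Sm and LSm proteins (9.52%) and 2 of 17 V-ATPase subunits (11.8%). The median EV levels of these lists were 25.4, 91.0 and 53.8 FPKM. In bins 8, 9 and 10 of 10 by EV level, 2.03%, 3.12% and 10.3% of all genes were higher. SNRPC and SNRPD2, the 2 Sm and LSm proteins called, did not pass after the GC correction (adjusted p = 0.160 and 0.187 in limma). With that correction 2 other members of their list and no V-ATPase subunit were higher.

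Mitochondrially encoded mRNAs had the highest share of higher calls. Of 13 genes 9 were higher (69.2%, against 1.99% of all genes), and 12 were higher in all 3 pairs, as were 27.4% of all genes. The median was 0.26, with 0.20, 0.32 and 0.19 in the 3 pairs. MT-ND2, a complex I subunit, was at 1063, 1186 and 1414 FPKM in EV and 1434, 1781 and 1802 in Long, without overlap (log2 difference 0.46, SE 0.06, adjusted p = 0.00884 in limma). MT-ATP8, an ATP synthase subunit, was at 6007, 5501 and 6629 in EV and 8229, 7431 and 7393 in Long. Most of these genes come from the same polycistronic transcript, so they are not independent. The median stayed above that of all genes under the other scalings, at 0.18 with TPM and 0.21 with the median ratio, and 5 genes of the list were called higher after the GC correction. Nuclear-encoded respiratory chain subunits had 3 higher (4%) and 1 lower (1.33%) of 75, with a median of 0.09. Mitochondrial ribosomal proteins had 2 higher (2.74%) and 1 lower (1.37%) of 73, where 1.99% of all genes were higher and 6.33% lower.

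Glycolysis and hypoxia genes had 7 lower members of 32 (21.9%, against 6.33% of all genes) and none higher. ANKRD37, a target of hypoxia-inducible factor, was at 16.5, 7.13 and 6.41 FPKM in EV and 15.1, 3.39 and 3.10 in Long, and its pairs differed by -0.12, -0.89 and -0.85. BNIP3L, a mitophagy receptor, was at 48.6, 45.3 and 44.01 in EV and 35.6, 31.2 and 37.3 in Long, without overlap. PGK1 and LDHA, glycolytic enzymes, were also lower, with LDHA at 1629, 1403 and 1109 FPKM in EV and 1456, 1294 and 976 in Long. GAPDH was at 2230, 2147 and 1856 in EV and 2211, 2118 and 1938 in Long (adjusted p = 0.898 in limma). The EV levels of PGK1 and LDHA themselves differed between passages by more than the difference from Long, which is seen only within pairs. The median of the list was -0.04 and was -0.10 after the GC correction, when 2 of its members were called lower. Of 15 common reference genes, PGK1 was lower (6.67%, near the 6.33% of all genes) and ACTB higher (6.67%, against 1.99%). Neither passed after the GC correction (adjusted p = 0.0591 and 0.0672 in limma). ACTB was at 1116, 958 and 959 FPKM in EV and 1211, 1163 and 1170 in Long.

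In the remaining lists few or no genes were called. Of 29 cholesterol synthesis and SREBP targets, IDI1, INSIG1 and STARD4 were lower (10.3%, against 6.33% of all genes). The difference of STARD4 went from -0.44 to -0.10 with the GC correction and did not pass (adjusted p = 0.374 in limma), and 1 member of the list was called lower. Of 25 p53 targets, CCNG1, RRM2B and PMAIP1 were lower (12%, against 6.33% of all genes), and none was after the GC correction. Of 24 immediate early genes FOS was lower (4.17%, below the share of all genes). FOS was at 6.41, 4.10 and 3.72 FPKM in EV and 4.33, 2.50 and 3.04 in Long. None of 31 interferon-stimulated genes and double-stranded RNA sensors was called in limma, where 8.32% of all genes were, and their median was 0.07. IFITM1, the most abundant of them in EV, was at 63.9, 65.6 and 47.4 FPKM in EV and 64.1, 72.4 and 47.8 in Long. None of 17 mRNAs known to be recoded or edited was called, against the same 8.32% of all genes. At that share, the absence of calls in lists of 31 and 17 genes says little about their members. FLNA, a target of ADARB1, was at 140, 118 and 96.9 FPKM in EV and 124, 119 and 113 in Long. Of the 6 tested editing enzymes ADARB1 alone was called. A level in FPKM does not measure editing. Of the 12 HEK293 markers KRT8 was higher (adjusted p = 0.0499 in limma).

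The largest rises other than ADARB1 were in transcripts of low abundance. GH1, growth hormone, was at 0.392, 0.667 and 1.10 FPKM in EV and 2.07, 5.75 and 3.37 in Long. Its order over the Long libraries was that of ADARB1. As background, commercial pCMV6 vectors carry a growth hormone polyadenylation signal, and whether reads of the plasmid transcript were counted for GH1 was not tested. SNORA21, a small nucleolar RNA, was at 0, 0.294 and 0 FPKM in EV and 3.50, 1.73 and 1.57 in Long, and such short, mostly non-polyadenylated RNAs are poorly measured in poly(A) libraries. C19orf81 and the pseudogene RPL29P26 rose by 0.50 and 0.55 on the log2 scale. The other 7 of the 12 leading higher genes had no symbol in the annotation. The largest fall, -1.83, was in a transcribed processed pseudogene (ENSG00000241434) at 4.29, 2.83 and 2.31 FPKM in EV and 0, 0.478 and 0 in Long.

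The direction of the calls was shared by the pairs, but not the size. Of the 873 lower genes 871 were lower in all 3 pairs and of the 275 higher genes all 275 were higher in all 3 pairs, which the choice of called genes favours. The lower genes had median differences of -0.58, -0.65 and -0.23 in pairs 1, 2 and 3, and pair 3 was the smallest of the 3 for 791 genes. The higher genes had similar medians in the 3 pairs, 0.20, 0.27 and 0.22. All Long values lay below all EV values for 154 of the lower genes, beside 433 (3.14%) of all tested genes, and above them for 199 of the higher genes, beside 1448 (10.5%).

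The direction was also read in a pair that the fit had not used. Of 944 genes called lower in pairs 1 and 2 alone, 866 (91.7%) were lower in pair 3, where 39.1% of all genes were lower. Of 87 called higher, 76 (87.4%) were higher in pair 3, where 60.9% of all genes were higher. The median of those lower genes was -0.62 in the fit and -0.20 in pair 3. Of 88 genes called lower in pairs 1 and 3, 87 (98.9%) were lower in pair 2, but of 12 called higher 7 (58.3%) were higher, near the 57.2% of all genes. Pairs 2 and 3 alone gave too few calls, so the genes at an unadjusted p under 0.05 were followed. Of 1373 lower genes 1247 (90.8%) were lower in pair 1, against 48.9% of all genes, and of 1971 higher genes 1379 (70.0%) were higher, against 51.1%. Over the 3 left-out pairs, 90.8% to 98.9% of lower genes and 58.3% to 87.4% of higher genes kept their sign, and the difference between these shares was not tested.

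**Figure D3:**
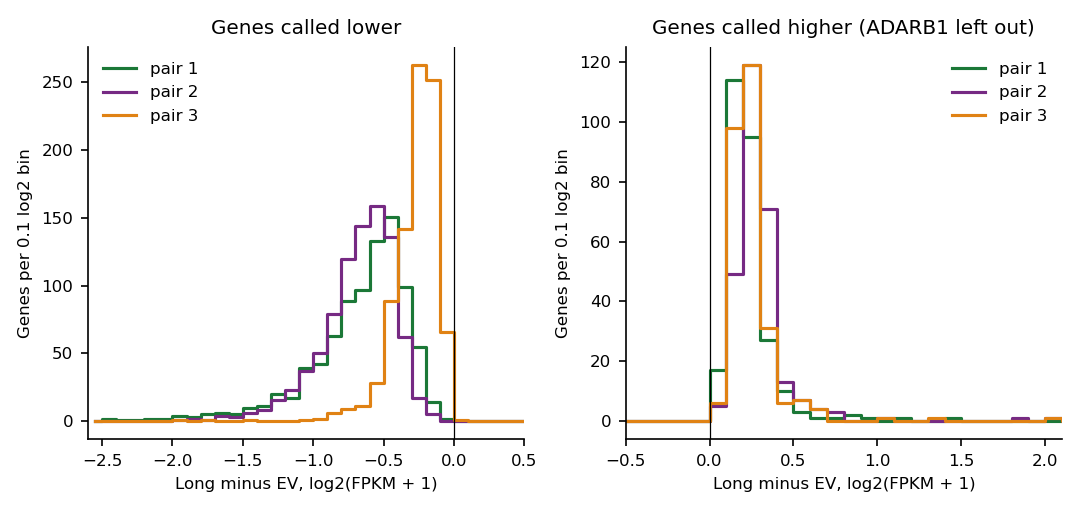
Number of genes by log2(FPKM + 1) difference, Long minus EV, in each of the 3 pairs, for the 873 genes called lower (left) and the genes called higher without ADARB1 (right), in bins of 0.1. The lower genes centre near -0.58 and -0.65 in pairs 1 and 2 and near -0.23 in pair 3, and the higher genes centre near 0.20 to 0.27 in all pairs.

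The passages themselves differed in the same genes. Relative to the EV mean, the 873 lower genes had a median of -0.10 and -0.15 in EV replicates 1 and 2 and 0.26 in EV replicate 3. They had medians of -0.70, -0.77 and -0.00 in Long replicates 1, 2 and 3. Long replicate 3 was therefore at the EV mean and below only its own EV partner, and the difference in pair 3 is seen only within the passage. The 275 higher genes were within 0.03 of the EV mean in each EV library and at 0.22, 0.24 and 0.22 in the Long libraries.

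**Figure D4:**
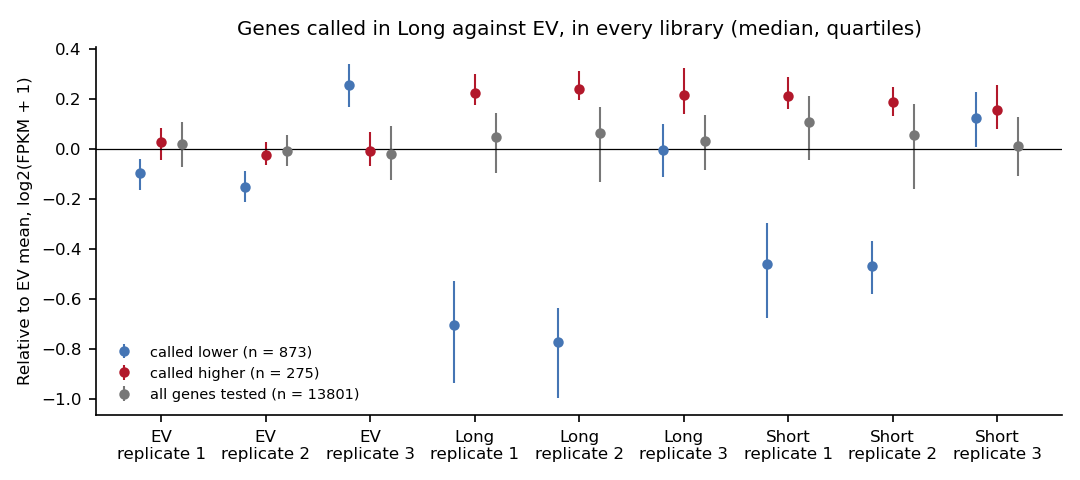
Median (points) and quartiles (bars) of log2(FPKM + 1) relative to the mean of the EV libraries, in each of the 9 libraries, for the genes called lower (blue), called higher (red) and all genes tested (grey). The lower genes are lowest in Long replicates 1 and 2 at -0.70 and -0.77, lie between in Short replicates 1 and 2, and are above or at the EV mean in the 3 libraries of replicate 3.

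Base composition and length, which the fit did not use, set the called genes apart. The longest annotated transcript had a median GC content of 37.7% in the lower genes, 52.7% in the higher genes and 47.8% in all tested genes. The median at the third position of codons was 34.9%, 66.4% and 58.2%. When genes were divided into 10 equal bins by GC content, in the lowest bin, 29.2% to 38.2%, 492 of 1340 were lower (36.7%) and 1 was higher, and in the highest bin 2 were lower (0.149%) and 30 were higher (2.24%). The median difference in the lowest bin was -0.26, -0.39 and -0.12 in pairs 1, 2 and 3. In the highest bin it was -0.03, 0.14 and 0.16, so the sign in pair 1 was opposite to that in the other pairs.

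Lower genes were also longer. Their median transcript length was 5588 nt, beside 2568 nt in the higher genes and 3730 nt in all, with a median of 12, 6 and 7 exons. In the longest of 10 such bins by length 15.8% of genes were lower and in the shortest 1.79%. Higher genes were abundant, with a median EV level of 64.4 FPKM against 13.7 in the lower genes and 11.6 in all, and 10.3% of the most abundant of 10 bins were higher. Chromosome 22, whose tested genes had a median GC content of 56.1%, held no lower gene among 335. Chromosome 13, at 43.2%, had 14.9% lower.

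When each library was corrected for GC content by a smooth curve, 94 genes were lower and 70 higher, and 113 of the 1148 called genes still passed. At an unadjusted p under 0.05 in limma 1161 genes were lower and 1535 higher, against 1652 and 1715 without the correction. The direction of 1119 of the 1148 was unchanged. CENPE went from -1.71 to -1.39 and ATRX from -1.56 to -1.29, and neither passed (adjusted p = 0.0518 and 0.0509 in limma). GOLGB1 (-1.44), RIF1 (-1.08), RANBP2 (-1.09) and HSP90AA1 (-0.55) stayed past the threshold. The lower calls in the lists became fewer, from 18 to 0 for centrosome genes, 8 to 0 for kinesins, 13 to 1 for cohesin and condensin and 10 to 1 for kinetochore genes. They went from 15 to 2 for break repair, 13 to 2 for remodellers, 7 to 2 for the spindle checkpoint, 4 to 0 for nonsense-mediated decay and 10 to 6 for golgins and tethers. The median of the centrosome list went from -0.24 to -0.11 and that of cohesin and condensin from -0.13 to -0.05, whereas that of the mitochondrially encoded mRNAs went from 0.26 to 0.24 and that of SR proteins and hnRNPs from 0.08 to 0.17. A correction for transcript length left 924 lower and 449 higher genes. FPKM cannot tell a change in the cells from a change in how libraries capture AT-rich or long transcripts, nor a change in mRNA level from a change in the share of cells expressing it, and the part of each was not tested.

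**Figure D5:**
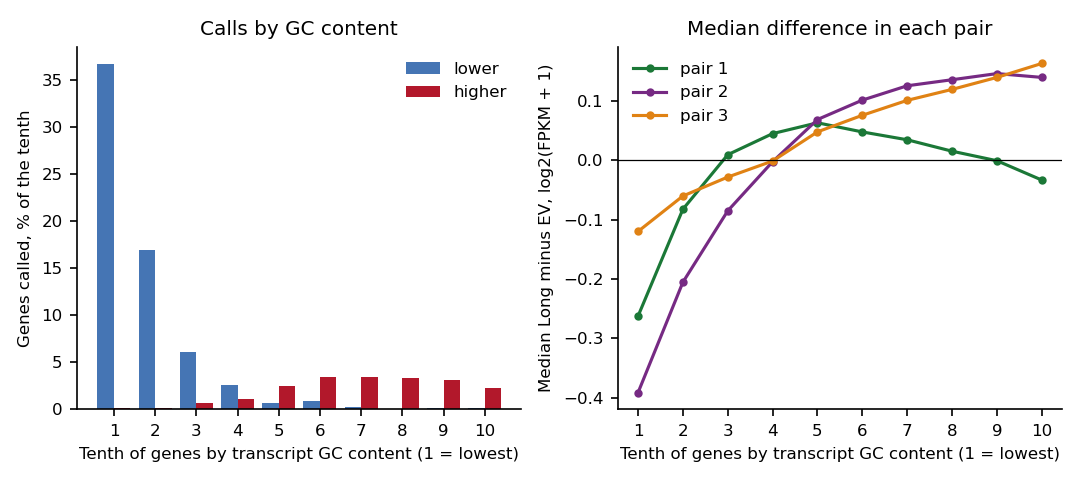
Left, percent of genes called lower (blue) and higher (red) in 10 equal bins of the tested genes by GC content of the longest transcript; right, median Long minus EV difference on the log2(FPKM + 1) scale in each pair. Lower calls make up 36.7% of the bin with the lowest GC content and 0.149% of the highest, and the slope is shallower in pair 3 at the low end.

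The Short libraries share the EV controls, so the comparisons of both isoforms with EV are not independent and their values are given side by side. ADARB1 was at 1889, 4145 and 2735 FPKM in Short and did not differ detectably from Long (log2 difference -0.27, adjusted p = 0.783 in limma). The Long values were 1695, 3449 and 2080 FPKM, so Short was higher in each of the 3 passages. The log2 difference from EV was -1.71 in Long and -0.88 in Short for CENPE, -1.56 and -0.73 for ATRX, and -1.49 and -0.76 for GOLGB1. For MT-ND2 it was 0.46 and 0.34, and for RPLP1 0.24 and 0.27. Relative to the EV mean, the 873 lower genes had medians of -0.46, -0.47 and 0.12 in the 3 Short libraries. Only 5 genes (0.0362%) were called in Short against EV, ADARB1, SNORA21, C4orf48 and 2 genes without symbols. That a gene passed in Long and not in Short does not show that the isoforms differ. In the test of the difference itself 1 gene (0.00725%) was called, with 1040 at an unadjusted p under 0.05 in limma. It was ENSG00000239935, which the annotation did not match, at 139, 141 and 117 FPKM in Long, 205, 253 and 186 in Short and 139, 168 and 134 in EV (log2 difference from Short -0.69, SE 0.06, adjusted p = 0.00392 in limma). For CENPE the adjusted p of Long against Short was 0.56, and no other gene named here was called between the isoforms with 3 libraries per group. Without replicate 3, 9 genes were called, among them HSP90AA1, which was lower in Long than in Short by a log2 difference of -0.59 (adjusted p = 0.00661 in limma, against 0.547 with all replicates).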

How the data were processed

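HEK293 samples were grouped as EV, Long and Short (3 libraries each) from the sample labels. The authors deposited FPKM for each Ensembl gene in separate columns for the 9 libraries. TopHat (version 1.4.1), Cufflinks and the build hg19 are named in the submitters' processing notes, and the libraries were strand-specific, but whether strand was used in counting is not given in the sources used here. FPKM depend on the library's other transcripts, so a few abundant mRNAs lower all other values.

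From these values, log2(FPKM + 1) was fitted for 13801 genes, whose FPKM averaged 1 or more, with limma (version 3.58.1, lmFit and eBayes with trend, R version 4.3.3) over all 9 libraries, with group and replicate number (cell passage) as terms. P-values were adjusted over all genes tested (Benjamini-Hochberg), and genes under 0.05 were called. Differences on this scale understate changes of genes with low FPKM. The methods name 3 passages but do not link them to replicate numbers, so the pairing by number is an assumption. Same-numbered libraries deviated together from their group means (r of 0.33 to 0.81 across genes). Replicate 3 stood apart from the others, but replicates 1 and 2 of different groups correlated at 0.18 to 0.37, as high as some same-numbered libraries, so the values alone do not separate passages 1 and 2. With passage as a term, p-values rest on the spread of the group differences within 3 passages.

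Gene names, GC content and length are from GENCODE v44 lifted to GRCh37, longest transcript, which matched 97.1% of the genes tested. GC and length corrections used a loess curve (span 0.3) per library. The function lists and the members were chosen with earlier results of these data known. Genes were named as follows: ADARB1, ADAR and ADARB2, the 12 lower and 12 higher genes with the largest differences among the called genes with the same sign in the 3 pairs, and the 2 largest such members of each list, or the most abundant member where none passed. Some genes that this rule names are not reported here. Others named in the text illustrate a list and were chosen after their values were seen. Alternatives were other pseudocounts, scalings, filters, models and left-out replicates. The fit was also run on simulated data with noise independent between genes. The libraries here share shifts across many genes, so that run does not show how reliable the calls are. The Alu exon's sequence, editing sites and other assays were not analysed here.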

Additional observations from a re-analysis of the deposited data

How the results depend on the processing

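The counts were 873 lower, 275 higher and 1 gene changed against Short. The lower count was 1 without the replicate block, 1 to 944 with each replicate left out in turn, 0 with no filter on low values and 94 after the GC correction. The higher count was 57 with TPM scaling, 112 with median-ratio scaling, 1 without the replicate block, 87 with only the EV and Long libraries, 45 with eBayes without a trend, 1 to 87 with a replicate left out, 1 with no filter, 70 after the GC correction and 449 after the length correction. Without the replicate block 429 genes were lower and 606 higher at an unadjusted p under 0.05 in limma, and with no filter 2004 and 2256 of 27356 genes. The count against Short was 0 without the replicate block (147 genes at an unadjusted p under 0.05 in limma), 3 with only the libraries compared, 0 with eBayes without a trend, 0 to 9 with a replicate left out and 0 with no filter. The 1148 called genes kept their sign under the other settings fitted, except 29 after the GC correction and the genes removed by a minimum of 5 FPKM. This was largely fixed in advance. Dropping the replicate block, the Short libraries, the trend or the filter leaves a gene's difference as it was, such as -1.71 for CENPE. Leaving out a replicate could hardly turn called genes, nearly all of which had the same sign in the 3 pairs. ADARB1 was higher and past the threshold throughout. Of named genes that were not called, FLNA was at -0.0564 with TPM scaling, -0.0263 with median-ratio scaling and -0.0653 after the GC correction, and ranged from -0.0791 to 0.117 with a replicate left out. IFITM1 was at -0.0219 with TPM scaling and -0.0270 after the GC correction. EPCAM was at -0.0139 with TPM scaling and ranged from -0.0161 to 0.139 with a replicate left out. Of the 29 called genes that changed sign after the GC correction, the naming rule covers CCNC (0.0428) and NDUFA5 (0.0516). The cause was not tested. TPM scaling changed the sign of 13 of 38 list medians. FPKM give no counts, so depth limits low genes to an unknown extent.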
